A study of Mus musculus with 12 samples.

Results

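The Hoxa and Hoxb genes described here are 10 homeobox genes of haematopoietic stem cells, 5 from the Hoxa cluster (Hoxa5, Hoxa6, Hoxa7, Hoxa9 and Hoxa10) and 5 from the Hoxb cluster (Hoxb2, Hoxb3, Hoxb4, Hoxb5 and Hoxb6). They were taken by symbol from a count table of 48795 genes. RNA-Seq was performed on long-term haematopoietic stem cells (LT-HSCs) sorted from mouse bone marrow, in 12 libraries. The 4 groups, with 3 libraries each, were CML c-KITlo, CML c-KIThi, normal c-KITlo and normal c-KIThi LT-HSCs. LT-HSCs were gated as lineage-negative cells positive for Sca-1, c-KIT and CD150 and negative for Flt3 and CD48. Within that gate c-KIThi and c-KITlo cells were those with the highest and the lowest surface c-KIT, in gates set on normal cells. CML cells came from Scl-tTA-BCR-ABL mice, in which a transactivator under the Scl (Tal1) promoter switches on BCR-ABL once doxycycline is withdrawn. The labels call the other donors normal B6 mice. By the study's methods, marrow of the transgenic mice was transplanted into irradiated wild-type CD45.1 recipients and controls stayed on doxycycline, so the sources do not fully settle what the normal donors carried. The labels state 4 biological replicates per group, but the deposited counts hold 3 libraries per group, and the paper's volcano plots give n = 3. No animals or pools are named in the labels, so p-values measure the spread between these libraries only. In bulk libraries, fewer cells that express a gene and less of its RNA per cell cannot be told apart.

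HOX proteins are transcription factors that bind DNA through a homeodomain, usually together with TALE partners of the PBX and MEIS families. Their genes lie side by side in clusters, are held active in stem cells by KMT2A (MLL1) complexes, and are silenced by Polycomb complexes as blood cells mature. HOXA9 is best known in blood as a factor that maintains self-renewal and that drives acute leukaemia together with MEIS1. HOXB4 is known for expanding haematopoietic stem cells when it is overexpressed, and Hoxb5 as a marker of long-term HSCs in mice.

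The members share the homeobox, the stretch that codes for the DNA-binding homeodomain, and were compared over it in their GENCODE M21 transcripts. Over the full 180-base homeobox, identity to Hoxa9 was 77.2% for Hoxa10 and between 60.6% and 66.1% for the other 8 members. The longest run shared exactly by any pair of members was 52 bases, between Hoxa6 and Hoxb4, and the next were 47 bases, between Hoxa7 and each of Hoxa6 and Hoxb4. A short read inside such a run could match more than 1 member, so the low values of Hoxa6 and Hoxb4 carry that uncertainty.

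Promoters are shown for 3 neighbours on chromosome 6, because Hoxa7 and Hoxa9 are the most read members and Hoxa5 has the richest CG content of the promoters matched. The windows hold 250 bases before and 50 after the RefSeq start (GRCm38.p6, minus strand): chr6:52218524-52218823 for Hoxa7, chr6:52227321-52227620 for Hoxa9 and chr6:52204538-52204837 for Hoxa5. Capitals mark CG dinucleotides, the sites that the CXXC domain of KMT2A binds when unmethylated.
Hoxa7: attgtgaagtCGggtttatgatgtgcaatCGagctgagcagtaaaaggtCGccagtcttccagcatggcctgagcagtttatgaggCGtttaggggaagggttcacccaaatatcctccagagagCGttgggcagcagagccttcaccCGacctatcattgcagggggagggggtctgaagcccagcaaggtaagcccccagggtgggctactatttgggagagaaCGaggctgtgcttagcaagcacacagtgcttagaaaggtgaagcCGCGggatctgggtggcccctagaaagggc
Hoxa9: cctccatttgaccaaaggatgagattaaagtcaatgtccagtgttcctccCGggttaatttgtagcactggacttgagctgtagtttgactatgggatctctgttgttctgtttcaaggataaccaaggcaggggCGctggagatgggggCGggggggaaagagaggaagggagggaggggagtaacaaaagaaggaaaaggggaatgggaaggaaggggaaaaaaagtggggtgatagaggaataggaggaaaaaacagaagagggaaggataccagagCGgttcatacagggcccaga
Hoxa5: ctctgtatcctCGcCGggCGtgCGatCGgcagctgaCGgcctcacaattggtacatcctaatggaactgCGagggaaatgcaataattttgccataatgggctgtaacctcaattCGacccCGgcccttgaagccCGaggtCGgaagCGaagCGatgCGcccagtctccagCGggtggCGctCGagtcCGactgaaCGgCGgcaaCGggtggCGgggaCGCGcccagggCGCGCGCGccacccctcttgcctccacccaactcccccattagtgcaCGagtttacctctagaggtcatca
These windows hold 9 CG pairs for Hoxa7, 4 for Hoxa9 and 29 for Hoxa5, against a median of 7 over 32851 RefSeq promoters of the same length. The letters searched on both strands were TATAAA, the NF-Y box CCAAT, the E-box CACGTG, the MEIS motif TGACAG and the HOX-PBX motif TGATNNAT, which occur in 13.6%, 37.4%, 7.15%, 19.2% and 8.85% of all promoters. CCAAT occurred in the windows of Hoxa5, Hoxa6 and the inner start of Hoxa10, and TATAAA in the last alone. The windows of Hoxa7, Hoxa9, Hoxb4 and the outer start of Hoxa10 held none of the 5 motifs. No promoter was matched for Hoxb2, Hoxb3, Hoxb5 and Hoxb6.

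Among the 10 members, 3 Hoxa genes took most of the reads in every library. Hoxa9 (chromosome 6, 52223100 to 52231089), Hoxa7 (52214491 to 52221854) and Hoxa10 (52231197 to 52240854) held 85.8% of the 35282 reads on the members. Levels are given as CPM, a count divided by the library total after scaling by edgeR's trimmed mean of M values (TMM). Hoxa9 ranged from 45.4 to 183 CPM over the 12 libraries with a median of 77.0 CPM, Hoxa7 from 23.5 to 122 CPM and Hoxa10 from 19.3 to 51.0 CPM. Hoxb5 was the leading Hoxb member, at 4.92 to 21.2 CPM, and had 6.07% of the member reads. The others were sparse. Hoxa5 reached 20.8 CPM and had a median of 6.04 CPM, while Hoxb4, Hoxb6, Hoxb2, Hoxa6 and Hoxb3 had medians between 0.224 and 1.70 CPM. Hoxa6 and Hoxb3 had no read in 4 libraries each, Hoxb6 in 3, and Hoxa5 and Hoxb4 in 1 each. Only Hoxb3, with 52 reads in all, did not pass the filter on low counts, so 9 of the 10 members were tested.

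Levels of different members were set in order per kilobase of exon. In CML c-KITlo LT-HSCs Hoxa9 (8.86 CPM per kilobase) and Hoxa7 (8.71) overlapped and lay above Hoxa10 (6.93), which lay above Hoxa5 (4.07). In CML c-KIThi LT-HSCs Hoxa7 came first at 29.3 CPM per kilobase, and its libraries (16.9 to 42.5) did not overlap those of Hoxa9 (13.3 to 15.2). This order rests on division by all annotated exonic bases, 2876 for Hoxa7 and 5580 for Hoxa9. In plain CPM the 2 genes overlapped in these libraries, at 48.6 to 122 for Hoxa7 and 74.4 to 84.8 for Hoxa9. Normal c-KITlo and normal c-KIThi LT-HSCs had Hoxa9 first (20.95 and 16.5 CPM per kilobase) and Hoxa7 next (18.2 and 15.01), with overlapping libraries. Hoxb3 was lowest in all 4 groups, at 0.0403 to 0.0878 CPM per kilobase. In CML c-KITlo LT-HSCs the coefficient of variation between libraries was 13.3% for Hoxa9, 6.49% for Hoxa7 and 8.29% for Hoxb5, against 49.7%, 62.7% and 42.9% in normal c-KITlo LT-HSCs. The library normal c-KITlo 1 had 5521 reads on Hoxa9, the most of any library, and none on Hoxa5, Hoxa6 or Hoxb6. Hoxa5 and Hoxa6 lie downstream on the same strand (52201754 to 52204587 and 52206288 to 52208722). The Hoxb members lie on the plus strand of chromosome 11 in the order Hoxb6 (96292476 to 96301569), Hoxb5 (96303336 to 96306121), Hoxb4 (96318267 to 96321638), Hoxb3 (96323326 to 96347930) and Hoxb2 (96350525 to 96354012). The miRNA gene Mir196b lies on the strand of Hoxa9 and shares 1.52% of its exonic bases.

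Hoxa5, Hoxb4 and Hoxb6 varied widely within groups. Hoxa5 had 11.04, 6.83 and 5.05 CPM in CML c-KITlo libraries, against 0, 4.34 and 20.8 CPM in normal c-KITlo libraries. Hoxb6 had 0, 4.60 and 8.36 CPM in normal c-KITlo and 4.18, 0 and 1.40 CPM in normal c-KIThi libraries. Its SE was 1.99 to 2.04 on the log2 scale in the 4 comparisons between groups, so these libraries could not resolve a change of moderate size. Library normal c-KITlo 3 had the highest Hoxa5, Hoxa10, Hoxb2, Hoxb5 and Hoxb6 levels of the 12.

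**Figure D1:**
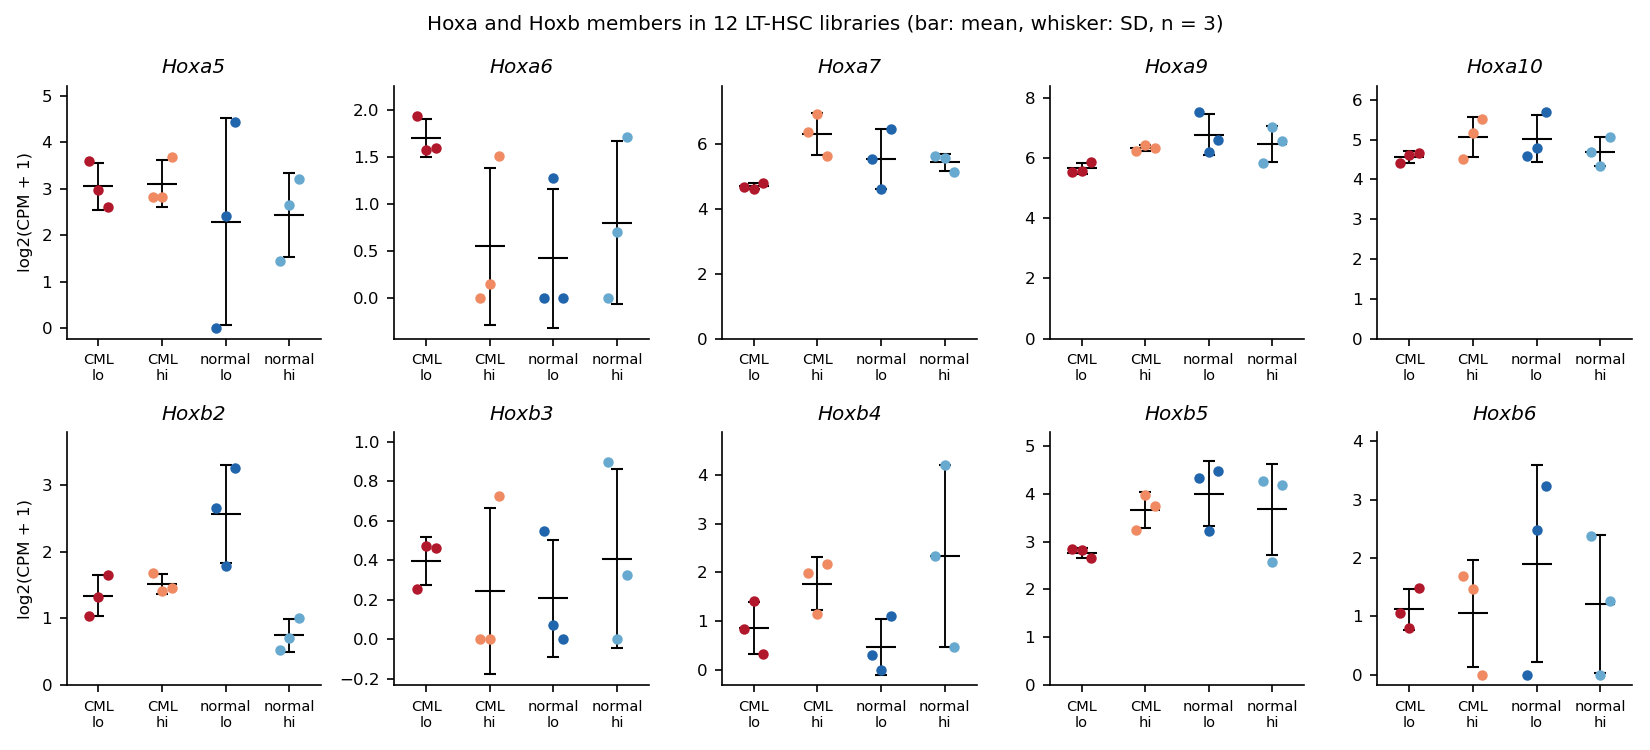
Levels of the 10 members in each library as log2(CPM + 1), by group (CML lo and hi are CML c-KITlo and c-KIThi, normal lo and hi likewise; points are libraries, bars the mean and whiskers the SD, n = 3). The CML c-KITlo points of Hoxa7, Hoxa9 and Hoxb5 lie close together and below all CML c-KIThi points, while Hoxa10 overlaps.

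Libraries held 7753878 to 31020852 reads on genes. c-KITlo libraries had 43.9% to 60.6% of their entries on genes and c-KIThi libraries 24.4% to 37.1%, and genes under 1000 exonic bases took 1.4% to 5.45% of the reads in c-KITlo and 7.03% to 13.8% in c-KIThi libraries. All 12 LT-HSC markers listed were read in each group, with summed levels of 2849 to 3372 CPM in CML c-KITlo, 1114 to 1755 in CML c-KIThi, 2484 to 4468 in normal c-KITlo and 1239 to 1380 in normal c-KIThi LT-HSCs. Library normal c-KITlo 3 stood apart with 6190 CPM over 11 neutrophil markers, led by Ngp, against 47.6 to 2445 CPM in the other 11 libraries.

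The comparison of CML c-KITlo with CML c-KIThi LT-HSCs asks how the members differ between the 2 fractions of leukemic stem cells. Hoxa7 was lower in CML c-KITlo cells. It had 24.9, 23.5 and 26.7 CPM in CML c-KITlo libraries, against 82.1, 122 and 48.6 CPM in CML c-KIThi libraries, and the groups did not overlap. The log2 fold change was -1.75 ± 0.53 (SE), with an edgeR quasi-likelihood adjusted p = 0.0593 that missed the 0.05 threshold. It passed in 9 of 20 alternative analyses, DESeq2 among them (adjusted p = 0.0105), and adjusted p ran from 1.87e-04 to 0.245 over the 20. The share of Hoxa7 in the reads on Hoxa7, Hoxa9 and Hoxa10 together, which no scaling of libraries can move, was 27.5%, 25.4% and 24.7% in CML c-KITlo and 46.0%, 50.6% and 28.1% in CML c-KIThi libraries. Differences between libraries that follow gene length can still move this share. With offsets for exonic length the log2 fold change was -1.84 for Hoxa7 and -1.37 for Hoxa9, against -1.75 and -0.69 in the main fit.

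Hoxa9 had 45.4, 45.9 and 57.0 CPM in CML c-KITlo libraries, against 74.4, 84.8 and 79.6 CPM in CML c-KIThi libraries. The CML c-KITlo libraries all lay lower, but the log2 fold change of -0.69 ± 0.42 (SE) did not pass in edgeR (adjusted p = 0.319). It passed with limma-voom (adjusted p = 0.0275) and in an edgeR fit of these groups alone (adjusted p = 0.0489). Both settings called many more genes than the main fit, which called 427 higher and 811 lower of 14676. Limma-voom called 2994 and 3288 of 14676, and the fit of these groups alone 2320 and 2487 of 13321. Hoxb5 had 6.14, 6.05 and 5.27 CPM in CML c-KITlo libraries, against 8.41, 14.6 and 12.5 CPM in CML c-KIThi libraries, again with no overlap (log2 fold change -1.02 ± 0.79, edgeR adjusted p = 0.431). Hoxa6 was the exception in sign, at 2.84, 1.99 and 2.02 CPM in CML c-KITlo libraries and 0, 0.110 and 1.86 CPM in CML c-KIThi libraries (log2 fold change 1.79 ± 2.11, edgeR adjusted p = 0.626). These levels rest on 46 to 73 reads per CML c-KITlo library and 0 to 17 per CML c-KIThi library. Hoxa10, the posterior neighbour of Hoxa9, had 20.2, 23.3 and 24.5 CPM in CML c-KITlo libraries, against 21.8, 34.7 and 44.6 CPM in CML c-KIThi libraries, and only its lowest CML c-KIThi library fell inside the CML c-KITlo range (log2 fold change -0.57 ± 0.54, edgeR adjusted p = 0.530). Together with Hoxa10, the remaining 5 tested members overlapped between the groups, with log2 fold changes of -1.52 (Hoxb4) to -0.07 (Hoxa5).

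In all, edgeR called 0 of the 9 tested members in CML c-KITlo versus CML c-KIThi LT-HSCs, where 8.44% of the 14676 genes tested were called. That background was not stable when a library was left out. The 427 genes higher and 811 lower became 0 and 0 without CML c-KITlo 1, without CML c-KITlo 2 or without CML c-KIThi 2. Without CML c-KITlo 3 they became 2 and 0. They grew to 816 and 1043 without normal c-KITlo 1, 727 and 1357 without normal c-KITlo 2, and 821 and 1200 without normal c-KITlo 3. Such fits also have fewer libraries, and the part of that was not tested. At an unadjusted p under 0.05 there was 1 member, beside 3947 of the 14676 genes. DESeq2 called 1 member (Hoxa7), beside 1057 genes higher and 2129 lower of 17061. Limma-voom with sample weights called 3 (Hoxa7 and Hoxa9 lower, Hoxa6 higher), beside 2994 genes higher and 3288 lower of 14676. Of the 9, 8 had a log2 fold change below 0, with a median of -0.57 against 0.05 over all genes tested. The groups did not overlap for 4 members, 3 lower and 1 higher, in a comparison where 51.2% of all genes did not overlap. On unscaled library totals, an alternative added after seeing the data, Hoxa7 and Hoxa6 still did not overlap, but Hoxa9 did, at 56.2, 60.2 and 73.4 CPM in CML c-KITlo and 66.3, 66.0 and 74.7 CPM in CML c-KIThi libraries. Hoxb5 overlapped too, at 7.61, 7.93 and 6.78 CPM in CML c-KITlo and 7.49, 11.4 and 11.7 CPM in CML c-KIThi libraries.

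In normal LT-HSCs the 3 leading members overlapped between the fractions. Hoxa9 had 183, 72.4 and 95.7 CPM in normal c-KITlo libraries, against 55.4, 129 and 92.4 CPM in normal c-KIThi libraries, with overlapping groups (log2 fold change 0.34 ± 0.42, edgeR adjusted p = 0.669). Hoxa7 (0.28 ± 0.52) and Hoxa10 (0.40 ± 0.54) overlapped as well. The largest log2 fold changes were those of Hoxb2 and Hoxb4. Hoxb2 had 5.33, 2.45 and 8.55 CPM in normal c-KITlo libraries, against 0.432, 0.631 and 1.02 CPM in normal c-KIThi libraries, where it rested on 3, 5 and 8 reads. These groups did not overlap (log2 fold change 2.96 ± 1.12, edgeR adjusted p = 0.119, DESeq2 adjusted p = 0.000976). Hoxb4 had 0.232, 0 and 1.15 CPM in normal c-KITlo libraries, against 4.04, 17.7 and 0.381 CPM in normal c-KIThi libraries, and the groups overlapped (log2 fold change -3.99 ± 1.79, edgeR adjusted p = 0.177, DESeq2 adjusted p = 0.0181). Without the library normal c-KIThi 2 its log2 fold change was -2.24 (adjusted p = 0.521).

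edgeR called 0 of the 9 members in normal c-KITlo versus normal c-KIThi LT-HSCs (2 at an unadjusted p under 0.05, 2 by DESeq2, 0 by limma-voom), beside 6.5% of all genes tested. These 455 genes higher and 499 lower became 0 and 0 without normal c-KIThi 1 or without normal c-KIThi 2, and 15 and 8 without normal c-KITlo 1. They grew to 744 higher and 483 lower without normal c-KITlo 2, and to 914 and 935 without normal c-KITlo 3. DESeq2 called 1111 genes higher and 1866 lower of 17061 here, and 3904 of 14676 genes had an unadjusted edgeR p under 0.05. The median log2 fold change of the 9 members was 0.34, against 0.16 over all genes with TMM scaling and 0.02 with medians of ratios. Only Hoxb2 did not overlap between these groups, where 23.6% of all genes did not.

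The comparison of CML c-KITlo with normal c-KITlo LT-HSCs asks what the disease changes in the c-KITlo fraction. Hoxa9 was lower in CML, with 45.4, 45.9 and 57.0 CPM in CML c-KITlo libraries, against 183, 72.4 and 95.7 CPM in normal c-KITlo libraries. The groups did not overlap (log2 fold change -1.24 ± 0.43, edgeR adjusted p = 0.262), and without normal c-KITlo 1 the log2 fold change was -0.76 (adjusted p = 0.515). Hoxb5 had 6.14, 6.05 and 5.27 CPM in CML c-KITlo libraries, against 19.1, 8.28 and 21.2 CPM in normal c-KITlo libraries (log2 fold change -1.48 ± 0.79, edgeR adjusted p = 0.436). Hoxb2 had 1.05, 1.51 and 2.15 CPM in CML c-KITlo libraries, against 5.33, 2.45 and 8.55 CPM in normal c-KITlo libraries (log2 fold change -1.79 ± 1.06, edgeR adjusted p = 0.497). All 3 genes were lower in each CML c-KITlo library than in each normal c-KITlo library. Hoxa7 overlapped through normal c-KITlo 2, at 23.5 CPM (log2 fold change -1.06 ± 0.52, edgeR adjusted p = 0.392).

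edgeR called 0 of the 9 members in this comparison (1 at an unadjusted p under 0.05, 0 by DESeq2 and 0 by limma-voom), beside 0.0954% of all genes. An unadjusted p under 0.05 held for 2003 of the 14676 genes. Over all genes DESeq2 called 380 higher and 178 lower of 17728, and limma-voom 0 and 6 of 14676. The 10 genes higher and 4 lower of the main fit became 311 and 599 without normal c-KITlo 2, with 0 members called. Log2 fold changes were below 0 for 7 of the 9, with a median of -1.06 against -0.13 over all genes. Groups did not overlap for 3 members that were lower and for Hoxa6, which was higher, where 20.1% of all genes did not overlap. In CML c-KIThi versus normal c-KIThi LT-HSCs, edgeR also called 0 of 9 (0 at an unadjusted p under 0.05, 0 by DESeq2 and 0 by limma-voom), beside 0.0204% of all genes, and the median was -0.18 against 0.03. Over all genes DESeq2 called 109 higher and 78 lower of 16404 there, and limma-voom 66 and 15 of 14676. An unadjusted edgeR p under 0.05 held for 977 of the 14676 genes. Hoxa7 had the smallest edgeR adjusted p, 0.801, with a log2 fold change of 0.97 ± 0.52. Hoxb2 alone did not overlap, at 2.21, 1.65 and 1.75 CPM in CML c-KIThi and 0.432, 0.631 and 1.02 CPM in normal c-KIThi libraries, where 14.3% of all genes did not overlap. On unscaled totals Hoxa7 did not overlap either, with all CML c-KIThi libraries higher.

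**Figure D2:**
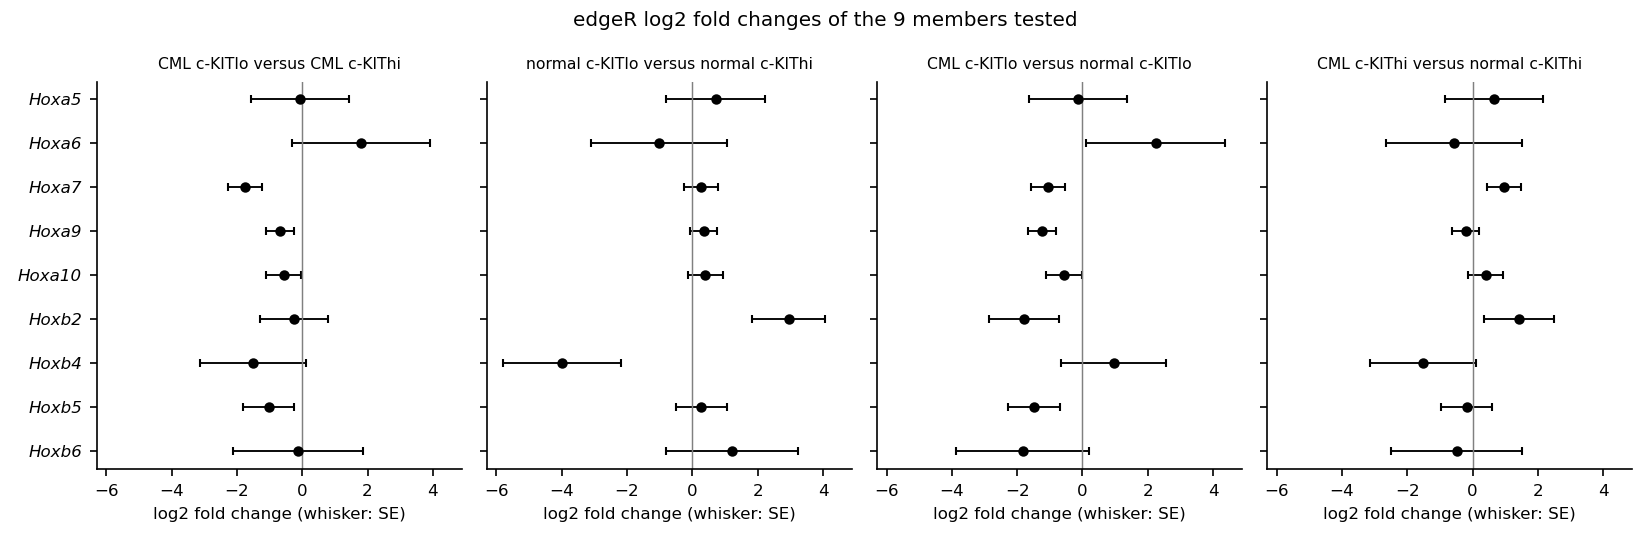
edgeR log2 fold changes of the 9 tested members (points) with their SE (whiskers) in 4 comparisons, the first-named group over the second. All members but Hoxa6 and Hoxb4 lie below 0 in both comparisons that have CML c-KITlo LT-HSCs on top, several by less than their SE. None passed the adjusted p threshold.

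The difference of the c-KITlo versus c-KIThi changes, CML minus normal, was tested directly as an interaction. It was below 0 for 7 of the 9 members, with a median of -1.03 against -0.16 over all genes. Hoxa7 had -2.03 ± 0.74 (edgeR adjusted p = 0.348) and Hoxb2 -3.21 ± 1.51 (edgeR adjusted p = 0.451). edgeR called 0 members (1 at an unadjusted p under 0.05, 0 by DESeq2 and 0 by limma-voom) and 0% of all genes in this test. An unadjusted p under 0.05 held for 1663 of the 14676 genes. Over all genes DESeq2 called 200 above and 86 below 0 of 17728, and limma-voom 0 and 0 of 14676. The 0 and 0 of the main fit became 163 and 253 without normal c-KITlo 2, with 0 members called. The comparisons share libraries, so their values are not independent of each other.

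Summed over the cluster, the 5 Hoxa members came to 104, 102 and 115 CPM in CML c-KITlo libraries, against 184, 248 and 187 CPM in CML c-KIThi libraries and 251, 128 and 255 CPM in normal c-KITlo libraries. Every CML c-KITlo library was below every library of both other groups. The difference in mean log2(CPM + 1) was -0.93 to CML c-KIThi and -0.91 to normal c-KITlo LT-HSCs. With CPM on unscaled library totals the first of these was -0.37, still without overlap, and the scaling factors of CML c-KITlo libraries (1.24 to 1.31) were above those of CML c-KIThi libraries (0.778 to 0.938). Normal c-KIThi libraries had 131, 201 and 170 CPM, and overlapped both CML c-KIThi and normal c-KITlo libraries. On unscaled totals normal c-KIThi 1, with 905 Hoxa reads of 9843191 reads on genes, lay below every CML c-KITlo library. No p is given for these sums, since the members were chosen with earlier results known.

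The 5 Hoxb members summed to 9.25, 10.3 and 9.86 CPM in CML c-KITlo libraries, against 15.8, 19.3 and 18.4 CPM in CML c-KIThi libraries and 25.1, 15.4 and 39.3 CPM in normal c-KITlo libraries. The differences in mean log2(CPM + 1) were -0.80 (-0.28 on unscaled totals) and -1.26, and the groups did not overlap. The last of these changed to -0.94 without normal c-KITlo 3, the library rich in neutrophil markers. CML c-KIThi libraries also lay below normal c-KIThi libraries, which had 27.7, 23.2 and 20.3 CPM. Hoxb reads made up 7.90%, 7.21% and 8.97% of the member reads in CML c-KIThi and 17.5%, 10.4% and 10.7% in normal c-KIThi libraries. In CML c-KITlo and normal c-KITlo libraries the shares were 8.15%, 9.23% and 7.87%, and 9.09%, 10.7% and 13.3%, and these overlapped. In CML c-KITlo versus normal c-KITlo LT-HSCs the median log2 fold change was -1.63 for the 4 tested Hoxb and -0.56 for the 5 tested Hoxa members.

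**Figure D3:**
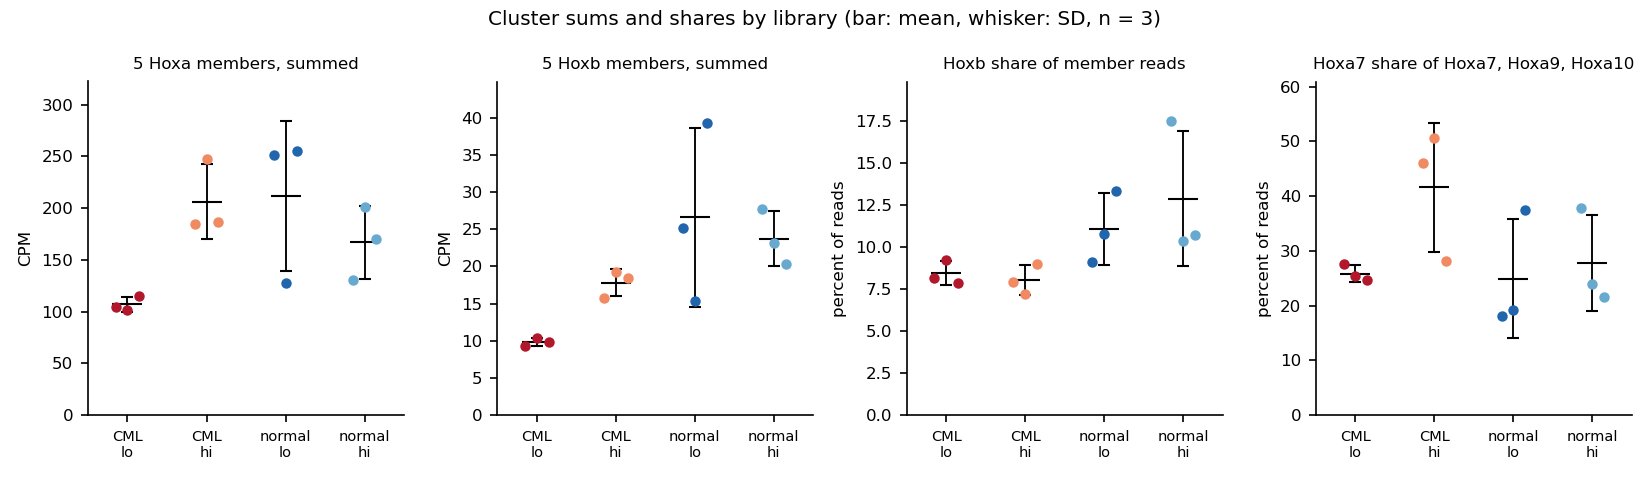
Summed CPM of the 5 Hoxa and of the 5 Hoxb members, the Hoxb share of all member reads, and the Hoxa7 share of reads on Hoxa7, Hoxa9 and Hoxa10 (points are libraries, bars the mean and whiskers the SD, n = 3; lo and hi are c-KITlo and c-KIThi). In both summed panels, which use TMM scaling, the CML c-KITlo libraries are the lowest. The Hoxb share of CML c-KIThi libraries lies below that of normal c-KIThi libraries.

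Other lineage markers moved with the same groups. Summed over 10 erythroid markers, mostly Car2, CML c-KITlo libraries had 1225 to 1341 CPM, against 3374 to 5291 in CML c-KIThi and 1616 to 5641 in normal c-KITlo libraries. The 9 B cell markers summed to 1145 to 5486 CPM in CML c-KITlo libraries, led by Ighm, against 134 to 198 in CML c-KIThi and 302 to 382 in normal c-KITlo libraries, while the B cell genes Ms4a1, Pax5 and Igll1 were at 0 in CML c-KITlo libraries. The 9 T and NK cell markers, mostly Nkg7, had 184 to 235 CPM in CML c-KITlo and 321 to 1097 in CML c-KIThi libraries, and Cd3e and Cd3g were at 0 in both. Monocyte and macrophage markers, mostly Lyz2, had 423 to 489 CPM in CML c-KITlo and 625 to 1116 in CML c-KIThi libraries. Endothelial markers had 233 to 320 and 68.8 to 99.1 CPM in these 2 groups. Neutrophil, megakaryocyte and mast cell sums overlapped between CML c-KITlo and CML c-KIThi libraries. In normal LT-HSCs the erythroid sums were 1616 to 5641 CPM in c-KITlo and 3569 to 6204 in c-KIThi libraries, and the megakaryocyte sums 1039 to 4515 and 2962 to 11550 CPM. The part of these markers, and of the shares of reads on genes, in the Hox values was not tested.

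Among the clusters' genes tested, the call in CML was an antisense RNA of the Hoxb cluster. Hoxb3os, an antisense gene on chromosome 11 (96343072 to 96354691, GRCm38, minus strand), shares exonic bases with Hoxb3 (52.9% of the exonic bases of Hoxb3) and with Hoxb2 (27.3%). It had 0.622, 0.821 and 1.47 CPM in CML c-KITlo libraries, against 12.5, 18.3 and 93.1 CPM in CML c-KIThi libraries. It fell in CML c-KITlo LT-HSCs by edgeR (log2 fold change -5.40 ± 1.37, adjusted p = 0.0340), a call kept in 13 of 20 alternatives, with adjusted p from 1.13e-04 to 0.153. Leaving out any 1 CML c-KITlo library, CML c-KIThi 2 or 3, or normal c-KIThi 2 or 3 ended the call (adjusted p 0.0542 to 0.153). In normal LT-HSCs it had 0.165, 0.307 and 5.23 CPM in c-KITlo libraries, against 62.6, 25.4 and 55.9 CPM in c-KIThi libraries (log2 fold change -4.67 ± 1.32, edgeR adjusted p = 0.0546). Both sets of groups stood apart, and the difference between the 2 changes was not called (log2 difference -0.73 ± 1.61, edgeR adjusted p = 0.896).

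Hoxb5os and Hoxaas3 were also lower in CML c-KITlo libraries and did not pass in edgeR, though each was called in 2 of 20 alternatives (limma-voom and a fit of these groups alone), with lowest adjusted p of 0.00416 and 0.00524. Over all genes limma-voom called 2994 higher and 3288 lower. The fit of these groups alone called 2320 and 2487, and the main fit 427 and 811. Hoxb5os, which shares 3.59% of the exonic bases of Hoxb5, had 0.817, 1.69 and 1.26 CPM in CML c-KITlo libraries, against 12.7, 20.02 and 11.8 CPM in CML c-KIThi libraries (log2 fold change -3.56 ± 1.66, edgeR adjusted p = 0.190). Hoxaas3, which shares 20.4% of the exonic bases of Hoxa7, had 2.53, 1.38 and 0.126 CPM in CML c-KITlo libraries, against 23.9, 19.9 and 7.34 CPM in CML c-KIThi libraries (log2 fold change -3.66 ± 2.17, edgeR adjusted p = 0.302). The library kit does not mark strand, so reads from shared bases cannot be told apart by strand, and reads touching more than 1 gene were set aside by the counting. Hoxb3 itself had at most 0.865 CPM in any library and was not tested.

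**Figure D4:**
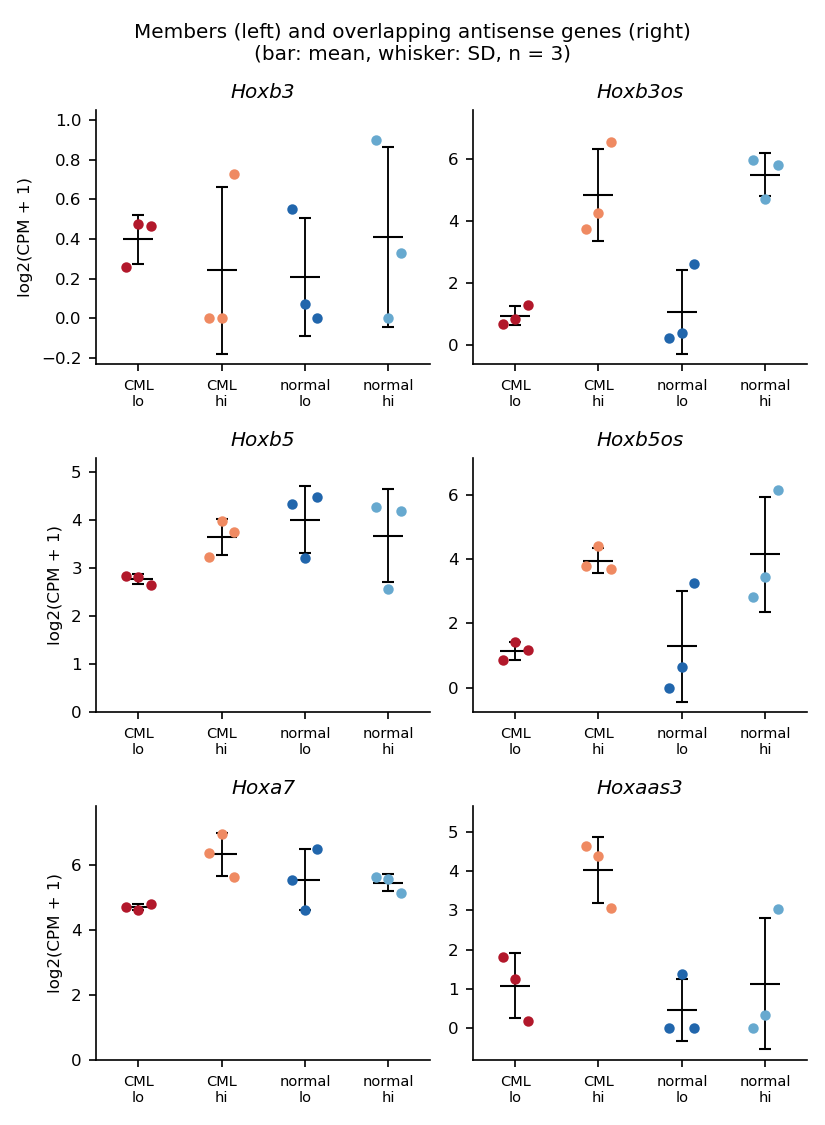
Log2(CPM + 1) of 3 members (left) and of the antisense gene that overlaps each (right), by group (points are libraries, bars the mean and whiskers the SD, n = 3; lo and hi are c-KITlo and c-KIThi). Hoxb3os is lower in c-KITlo than in c-KIThi libraries in both CML and normal LT-HSCs, and Hoxb3 is below 1 CPM in all 12 libraries.

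Counts covered 11 Hoxa genes (8 tested), 10 Hoxb genes (5 tested), 9 Hoxc genes (1 tested) and 9 Hoxd genes (0 tested). Reads totalled 32707 on Hoxa, 3900 on Hoxb, 595 on Hoxc and 63 on Hoxd genes. Outside the 10 members, Hoxa2, Hoxa3, Hoxa4, Hoxb7 and Hoxc6 passed the filter, and edgeR called none of Hoxa2, Hoxa3 and Hoxa4. Hoxa2 had 24.5 CPM in normal c-KIThi 1 and at most 3.48 CPM in any other library. Hoxb7 had no read in the 6 CML libraries and 433 reads in normal c-KITlo and 8 in normal c-KIThi libraries, present in 2 and 1 of the 3. Hoxc6 likewise had no read in CML, and 477 and 23 reads in normal c-KITlo and normal c-KIThi libraries, in 2 of 3 each. Library normal c-KITlo 1 alone held 385 of the Hoxb7 and 440 of the Hoxc6 reads, and normal c-KITlo 2 had none of either. Hoxb7 was not called in CML c-KITlo versus normal c-KITlo LT-HSCs (edgeR adjusted p = 0.268).

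Among HOX cofactors, Meis1, the main partner of Hoxa9 in blood, had 331 to 370 CPM in CML c-KITlo, 174 to 470 in CML c-KIThi, 297 to 482 in normal c-KITlo and 191 to 361 in normal c-KIThi libraries, with overlap in every comparison. Its log2 fold change was 0.26 ± 0.41 in CML c-KITlo versus CML c-KIThi (edgeR adjusted p = 0.726). Of 10 cofactor genes tested, edgeR called only Meis3, as higher in normal c-KITlo versus c-KIThi LT-HSCs (10% beside 6.5% of all genes). In CML it was higher too, at 10.2, 7.52 and 15.5 CPM in c-KITlo and 2.97, 2.42 and 1.42 CPM in c-KIThi libraries. Those groups did not overlap, but the change did not pass (log2 fold change 2.28 ± 0.87, edgeR adjusted p = 0.114, called in 3 of 20 alternatives). In normal LT-HSCs Meis3 had 37.5, 32.4 and 12.2 CPM in c-KITlo libraries, against 3.89, 1.14 and 1.65 CPM in c-KIThi libraries (log2 fold change 3.62 ± 0.92, edgeR adjusted p = 0.0405, kept in 7 of 20 alternatives).

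Among 22 tested activators of HOX genes, Kmt2a itself was not called by edgeR in any comparison, at 12.1 to 42.9 CPM over the 12 libraries. Men1, which codes for menin, the tether of KMT2A, rose in c-KITlo cells in both arms. In CML it had 152, 172 and 212 CPM in c-KITlo libraries, against 42.1, 39.5 and 28.1 CPM in c-KIThi libraries (log2 fold change 2.29 ± 0.42, edgeR adjusted p = 0.0153, kept in 16 of 20 alternatives). In normal LT-HSCs it had 264, 137 and 87.3 CPM in c-KITlo libraries, against 51.9, 60.2 and 49.8 CPM in c-KIThi libraries (log2 fold change 1.59 ± 0.41, edgeR adjusted p = 0.0430, kept in 3 of 20). Dpy30, a core subunit of the same methyltransferases, fell in CML c-KITlo versus CML c-KIThi LT-HSCs, with 69.9, 85.6 and 73.1 CPM against 500, 974 and 464 CPM (log2 fold change -3.08 ± 0.59, edgeR adjusted p = 0.0153, kept in 16 of 20). In normal LT-HSCs Dpy30 also lay lower, at 254, 50.65 and 288 CPM in c-KITlo and 759, 468 and 508 CPM in c-KIThi libraries. edgeR did not call that change, and 1 of 20 alternatives did. Kat7, a histone acetyltransferase that KMT2A-rearranged leukaemia depends on, rose in CML c-KITlo libraries to 183 to 250 CPM, against 39.8 to 52.6 CPM in CML c-KIThi libraries (log2 fold change 2.18 ± 0.50, edgeR adjusted p = 0.0233, kept in 13 of 20). In all, 2 activators rose and 1 fell in CML c-KITlo versus CML c-KIThi, which is 13.6% of the 22 beside 8.44% of all genes, and 1 rose in normal c-KITlo versus normal c-KIThi LT-HSCs (4.55% beside 6.5%).

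Of 23 Polycomb genes tested, 2 rose in CML c-KITlo versus CML c-KIThi LT-HSCs, a share of 8.7% that lies near the 8.44% over all genes. Bap1, a deubiquitinase of the H2A mark of PRC1, had 224, 192 and 251 CPM in CML c-KITlo libraries, against 33.8, 29.1 and 24.1 CPM in CML c-KIThi libraries (log2 fold change 2.94 ± 0.74, edgeR adjusted p = 0.0327, kept in 11 of 20). Phc2, a subunit of PRC1, rose by 2.06 ± 0.52 on the log2 scale (edgeR adjusted p = 0.0340, kept in 11 of 20). Eed, a core subunit of PRC2, fell in normal c-KITlo versus normal c-KIThi LT-HSCs, with 42.3, 65.8 and 67.7 CPM against 261, 110 and 134 CPM (log2 fold change -1.52 ± 0.40, edgeR adjusted p = 0.0437, kept in 5 of 20). The median log2 fold change of the Polycomb genes in c-KITlo versus c-KIThi LT-HSCs was 0.40 in CML and 0.06 in normal cells, that of the activators 0.21 and -0.12, and that of the cofactors 0.26 and 0.69, against 0.05 and 0.16 over all genes.

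Of 16 genes tied to HOXA9 and MEIS1 in blood cells, 12.5% were called in CML c-KITlo versus CML c-KIThi (8.44% of all genes) and 18.8% in normal c-KITlo versus normal c-KIThi LT-HSCs (6.5%), and Gfi1 and Hmga2 passed in both. Gfi1, a transcriptional repressor, had 30.5, 14.6 and 50.5 CPM in CML c-KITlo libraries, against 2.12, 0.660 and 2.96 CPM in CML c-KIThi libraries (log2 fold change 4.05 ± 0.995, edgeR adjusted p = 0.0303, kept in 14 of 20). In normal LT-HSCs it had 140, 44.4 and 58.9 CPM in c-KITlo libraries, and 3 reads in all in the c-KIThi libraries (edgeR adjusted p = 0.0142). The ratio of pooled rates was 697, with a 95% exact Poisson interval of 239 to 3380 that covers counting error only. Hmga2, a chromatin factor of fetal stem cells, fell in c-KITlo cells. It had 3.97, 3.59 and 3.88 CPM in CML c-KITlo libraries, against 27.7, 167 and 475 CPM in CML c-KIThi libraries (log2 fold change -5.87 ± 0.96, edgeR adjusted p = 0.0151, kept in 16 of 20), and 9.03, 4.65 and 20.2 CPM in normal c-KITlo libraries, against 144, 104 and 265 CPM in normal c-KIThi libraries (log2 fold change -3.92 ± 0.87, edgeR adjusted p = 0.0268, kept in 10 of 20). Cdk6, a G1 kinase, fell in normal c-KITlo versus normal c-KIThi LT-HSCs, with 5.33, 45.0 and 22.1 CPM against 207, 173 and 223 CPM (log2 fold change -3.06 ± 0.67, edgeR adjusted p = 0.0260, kept in 11 of 20). In CML it also lay lower, at 132, 118 and 82.0 CPM in c-KITlo and 201, 294 and 640 CPM in c-KIThi libraries. That change did not pass (log2 fold change -1.77 ± 0.63, edgeR adjusted p = 0.0956, called in 5 of 20 alternatives). edgeR called no gene of the 4 lists between CML and normal LT-HSCs in either fraction, beside 0.0954% of all genes in c-KITlo and 0.0204% in c-KIThi cells. Of the list genes named here, Cdk6 was called between CML and normal c-KITlo LT-HSCs in 2 of 20 alternatives. Bap1, Kat7 and Dpy30 were called there in 1 each. Leaving out any 1 CML c-KITlo library or CML c-KIThi 2 ended every call of these lists in CML c-KITlo versus CML c-KIThi LT-HSCs, and leaving out normal c-KIThi 1 or 2 ended every one in normal LT-HSCs.

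**Figure D5:**
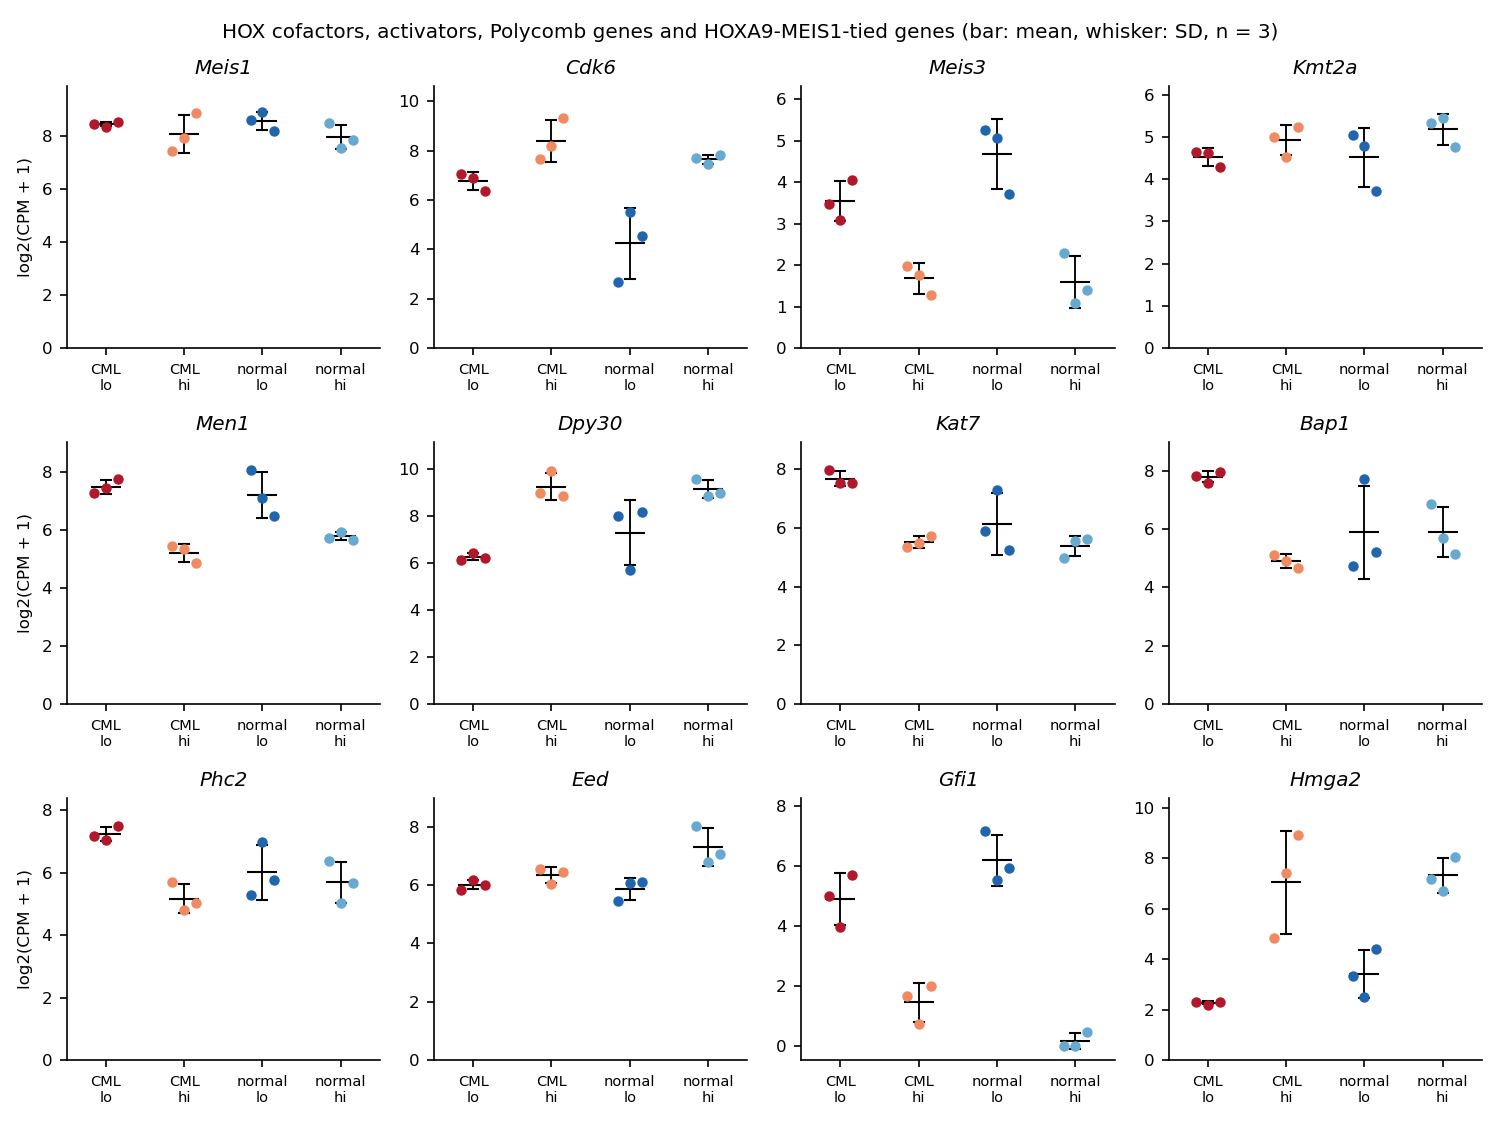
Log2(CPM + 1) of 12 HOX cofactors, regulators and associated genes by group (points are libraries, bars the mean and whiskers the SD, n = 3; lo and hi are c-KITlo and c-KIThi). Men1 and Gfi1 are higher, and Hmga2 lower, in c-KITlo than in c-KIThi libraries of both arms, while Meis1 and Kmt2a overlap.

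The genes whose profile over the 12 libraries was most like the mean log2(CPM + 1) of the 5 tested Hoxa members were Phf20 (Pearson r = 0.85), Ubxn4 (0.83) and Ccdc181 (0.81), among 7174 genes with a mean of at least 20 CPM. For the 4 tested Hoxb members they were Il21r (0.95), Eci1 (0.92) and Mcrip2 (0.92). These are descriptions over 12 libraries that share their group means and scaling.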

How the data were processed

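The authors sorted LT-HSCs, made cDNA with a SMARTer kit and Nextera XT libraries, which keep no strand, and sequenced them on an Illumina HiSeq. They aligned reads with STAR 2.5.3a and counted them per gene with HTSeq 0.9.1, and the deposited values are raw read counts. The strand setting of the counting is not given in the sources used here. HTSeq set aside 472367 to 1579922 reads per library that touched more than 1 gene.

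Counts of all 12 libraries were fitted together in edgeR 4.0.16 (R 4.3.3) with TMM scaling, filterByExpr by group and the quasi-likelihood test, with Benjamini-Hochberg adjustment over 14676 genes and a threshold of 0.05. The fit was tested on simulated data. Alternatives were DESeq2 1.42.0, limma-voom (limma 3.58.1), other scalings, filters and offsets, thinning to 7753878 reads, a replicate block, and leaving out each library. Named genes were the members, other tested Hox genes, genes sharing exonic bases with a member, up to 4 list genes per comparison that passed, Meis1, Kmt2a, and the 3 most similar profiles per cluster. The members and lists were chosen with earlier results of these data known. Gene positions are from GENCODE M21 on GRCm38. Some items named by these rules are not reported here.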

Additional observations from a re-analysis of the deposited data

Results flagged for a closer look

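Hoxb2 had opposite signs of difference between CML and normal LT-HSCs in the 2 fractions. All 3 CML c-KITlo libraries lay below all 3 normal c-KITlo libraries, while all 3 CML c-KIThi libraries lay above all 3 normal c-KIThi libraries. The test of the difference itself gave -3.21 on the log2 scale (edgeR adjusted p = 0.451), which did not pass. The normal c-KIThi libraries held 3, 5 and 8 reads on Hoxb2.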

How the results depend on the processing

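Over the alternatives, 889 log2 fold changes of members were recomputed, of which 41 had the opposite sign, 14 were newly called, 25 moved by over 1 SE and 0 were called with a reversed sign. In normal c-KITlo versus normal c-KIThi LT-HSCs DESeq2 called 2 members. In CML c-KITlo versus CML c-KIThi LT-HSCs the number called was 1 with DESeq2, 1 after thinning, 1 with medians of ratios, 1 with length offsets, 2 in a fit of these groups alone and 3 with limma-voom, and from 0 to 1 on leaving out each library. Over all genes, limma-voom called 2994 higher and 3288 lower there. The fit of these groups alone called 2320 and 2487, and the main fit 427 and 811. The summed Hoxa difference in that comparison was -0.37 and the summed Hoxb difference -0.28 in log2(CPM + 1) on unscaled totals. The Hoxb share differed there by 1.72 percentage points without the most counted member of each cluster, and by -4.31 between CML c-KITlo and normal c-KITlo LT-HSCs over all Hoxa and Hoxb genes. Why these values moved was not tested. Members under a few CPM rest on few reads, which limits their precision.

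The labels do not say that replicate numbers pair the samples. Deviations of same-numbered libraries from their group means correlated at -0.17 to 0.11. Differently numbered libraries were not compared, so these values cannot decide whether samples were paired. With the replicate number as a block, 108 genes rose and 322 fell in CML c-KITlo versus CML c-KIThi LT-HSCs, against 427 and 811 without it, and 68 rose and 131 fell in normal LT-HSCs, against 455 and 499. The block called 0 members in every comparison, and Hoxa7 had an adjusted p of 0.113 (edgeR).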
